A study of Rattus norvegicus with 42 samples.

Results

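The comparison described here sets GH4C1 cells that lack the long non-coding RNA Neat1, harvested 26 h after a change of medium, against the same cells harvested at 14 h. GH4C1 is a cell line from a rat pituitary tumour, related to the cells that make growth hormone and prolactin. The 6 libraries of the comparison are the 3 replicates of T14 and the 3 replicates of T26 in the knockout (KO, labelled Neat1 -/- and made with CRISPR-Cas9), out of 42 libraries in the series. They were chosen by their labels and not by any measured value. The other libraries used here are the KO replicates at T10, T18, T22, T30 and T34 and the untreated wild-type replicates (WT) at the same times, 3 for each genotype and time. All cells had serum-containing medium replaced at 0 h, so every group shares that stimulus. The labels used here do not say whether the KO is 1 clone or whether replicates are separate cultures. P-values then measure the spread between these samples, which may be technical.

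T14 and T26 lie 12 h apart and would be opposite phases of a 24 h rhythm. In mammalian cells such rhythms come from a feedback loop in which the activators CLOCK and BMAL1 drive the Per and Cry genes, whose proteins then repress their own transcription. A change of serum-containing medium sets this loop to a common phase across a culture. Neat1 RNA is the scaffold of paraspeckles, nuclear bodies that hold RNA-binding proteins and certain RNAs, and paraspeckles have been linked to the rhythmic retention of RNA in the nucleus of pituitary cells. The series asked what the loss of Neat1 does to rhythmic expression. The count tables name genes by Ensembl identifiers that they do not pair with symbols, and for 0 of 13776 could a symbol be looked up. The level of Neat1, the clock genes and the markers of pituitary cell types were therefore not analysed here, and the genes are described by identifier, size of change and course.

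The 6 libraries held 45.9 M to 59.2 M read counts each. The correlation of log2 CPM (counts relative to library size, the depth scaled by the TMM method) between replicates of a time was 0.991 to 0.992 over genes, and 200 to 239 genes differed more than 2-fold between a pair of replicates. Among all 21 KO libraries, principal component 1 held 36.5% of the variance. On it the T14 libraries lay between -14.5 and -12.8. At T26, replicate 2 lay at -12.9, within the T14 range, whereas replicates 1 and 3 lay at -5.66 and -3.37. At T30, replicate 1 lay at 0.20 and replicates 2 and 3 at 29.7 and 25.7, and the T34 libraries lay between 35.7 and 39.7. On the second component, with 7.96% of the variance, the 3 T26 libraries were together, at -11.8, -14.3 and -12.8, and the T14 libraries lay between 3.08 and 6.81. T26 replicate 2 was thus apart from its 2 replicates on the first component and with them on the second, and the main counts and the changes of the named genes are given with and without it.

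In KO cells 1000 of 13763 genes differed between T26 and T14 (edgeR quasi-likelihood test, adjusted p under 0.05), which is 7.27% of the genes tested. Of these, 486 were higher (3.53% of the genes tested) and 514 were lower (3.73%) at T26. The changes were small. The median fold change was 1.19-fold among the genes that rose and 1.21-fold among those that fell, and 336 of the 1000 genes changed at least 1.25-fold, 88 at least 1.5-fold and 17 at least 2-fold. When the test asked for more than a 1.5-fold change, edgeR called 0 genes, with 79 at an unadjusted p under 0.05. For 11426 of the genes tested, the 95% interval of the fold change lay within 1.5-fold in either direction. Over all genes tested the median was -0.00085 on the log2 scale, a value that TMM scaling holds near 0. In bulk libraries such as these, fewer cells in a state and less RNA per cell cannot be told apart.

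**Figure D1:**
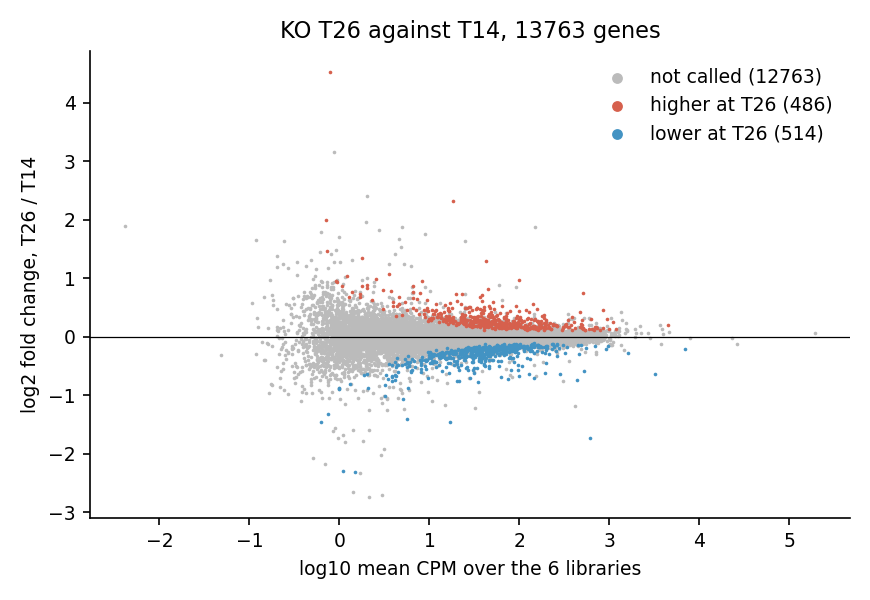
Log2 fold change of T26 over T14 in KO cells (vertical axis) against the log10 of the mean CPM over the 6 libraries (horizontal axis), 1 point per gene. The 486 genes called higher and the 514 called lower lie close to the line of no change over most of the range, and calls of 2-fold or more are mostly at low levels.

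The genes that rose and those that fell separated the 2 times almost without overlap. All 3 T26 libraries lay above or below all 3 T14 libraries for 473 of the 486 genes that rose and for 504 of the 514 that fell. Over all genes tested the groups did not overlap for 27.5%, with 15.1% wholly higher and 12.4% wholly lower at T26. Since the call and the overlap use the same libraries, the high shares among called genes are a description only. The genes that rose took 4.39% to 4.46% of the counts of each T14 library and 4.95% to 5.23% of each T26 library. The genes that fell took 4.28% to 4.71% at T14 and 3.56% to 3.71% at T26. The shares of the 2 times did not overlap for either set.

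Calls were more frequent among well-covered genes. The genes were split by mean level into 4 classes of equal size. Of the lowest class (up to 6.38 CPM), 75 genes were called (2.18%), against 219 (6.36%) in the next class, 364 (10.6%) in the class from 25.3 to 65.0 CPM and 342 (9.94%) in the highest. The median standard error of the log2 fold change was 0.21 in the lowest class and 0.05 in the highest. The median size of a called change was 0.67 on the log2 scale in the lowest class and 0.19 in the highest. Of the 17 calls of at least 2-fold, 13 were in the lowest class. Changes of the common size could thus be called at high counts and were not detectable at low counts. The median level was 47.2 CPM for the genes that rose and 38.9 CPM for those that fell, against 25.3 CPM over all genes. Where shares called in these sets are set beside those of all genes below, the levels therefore differ.

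The number of calls varied with the libraries kept, and leaving out a library also gives the test fewer at that time. Without T26 replicate 2 it was 1032, of which 788 were among the 1000. Without T26 replicate 1 it was 427 and without T26 replicate 3 it was 470, of which 416 and 458 were among the 1000. Without T14 replicate 1, 2 or 3 it was 631, 519 and 531. Of the 1000 genes, 311 were called with each of the 6 libraries left out in turn. Without T30 replicate 1, which enters only the estimate of the spread, 1655 genes were called, and all 1000 were among them. In a fit that also held the 21 WT libraries 264 genes were called, and 967 once WT T34 replicate 1 was left out of that fit.

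To place T26 in the course of the KO cells, every other time was compared with T14. These comparisons share the T14 libraries. At T10, 34 genes differed from T14 (0.247% of the genes tested), at T18 1 gene (0.00727%) and at T22 13 genes (0.0945%). At T30, 4991 genes differed (36.3%), and at T34 7613 (55.3%). The count was thus low through T22, reached 1000 at T26 and rose further at T30 and T34. T26 was also compared with each of those times. It differed from T10 in 2011 genes (14.6%), from T18 in 569 (4.13%), from T22 in 288 (2.09%), from T30 in 3553 (25.8%) and from T34 in 7234 (52.6%). T26 thus differed in fewer genes from T22, the time just before, than from T30, the time just after.

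**Figure D2:**
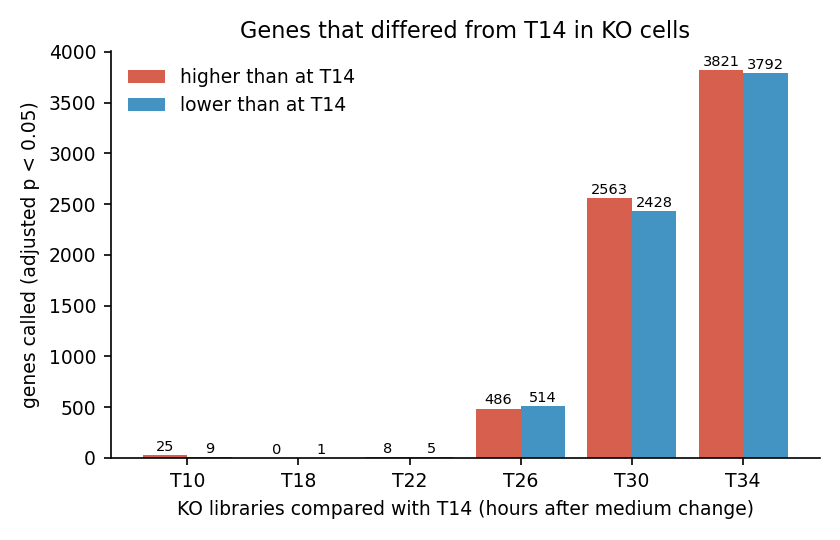
Number of genes called higher (red) or lower (blue) than at T14 at each other time in KO cells, by edgeR at an adjusted p under 0.05. The bars are at 25 or below through T22, at 486 and 514 at T26, and at 3821 and 3792 at T34.

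Of the called genes, 921 had a mean level of 5 CPM or more and no overlap between the times, 446 higher and 475 lower. Among them the highest fold changes were those of ENSRNOG00000021201 and ENSRNOG00000007319. ENSRNOG00000021201 stood at 26.3, 25.1 and 22.2 CPM in T14 replicates 1 to 3 and at 76.1, 33.6 and 72.1 CPM in T26 replicates 1 to 3. T26 replicate 2 was above all T14 libraries but far below the other T26 libraries. The mean rose 2.46-fold, with a log2 fold change of 1.30 (SE 0.19, 95% interval 0.89 to 1.70, edgeR adjusted p 0.00044). Without T26 replicate 2 it was 1.59 (adjusted p 3.2e-08). From T10 to T22 its KO level had stayed flat, with means of 25.3 ± 0.94 CPM at T10 and 25.95 ± 1.57 CPM at T22 (SD, n = 3 each). It reached 113 ± 19.4 CPM at T30 and 111 ± 0.66 CPM at T34 (SD, n = 3 each). At T30, replicate 1 was the lowest, at 91.2 CPM against 119 and 129 CPM. In WT cells the gene stood at 65.5 ± 1.47 CPM at T14 and 58.3 ± 1.49 CPM at T26 (SD, n = 3 each), so its KO level was below the WT level at T14 and overlapped it at T26.

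ENSRNOG00000007319, too, was lowest in replicate 2 among the T26 libraries. It stood at 65.4, 68.1 and 67.5 CPM in T14 replicates 1 to 3 and at 154, 79.8 and 159 CPM in T26 replicates 1 to 3. The mean rose 1.95-fold, with a log2 fold change of 0.96 (SE 0.21, 95% interval 0.53 to 1.39, edgeR adjusted p 0.0076). Without T26 replicate 2 it was 1.22 (adjusted p 0.00016). The adjusted p was 0.0501 without T26 replicate 1 and 0.0507 without T26 replicate 3, so the call was lost without either. The KO level was 64.9 ± 2.83 CPM at T22, 379 ± 124 CPM at T30 and 458 ± 14.3 CPM at T34 (SD, n = 3 each). At T30, replicate 1 was again lowest, at 236 CPM against 451 and 449.7 CPM. In WT cells it stood at 37.2 ± 2.68 CPM at T14 and 32.7 ± 0.39 CPM at T26 (SD, n = 3 each). The WT level was higher at T34, at 67.3 ± 1.10 CPM (SD, n = 3), and still below every KO library from T26 on.

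The lowest fold changes belonged to ENSRNOG00000047280 and ENSRNOG00000049132, and ENSRNOG00000047280 varied widely between replicates at some times. ENSRNOG00000047280 stood at 17.96, 28.9 and 26.6 CPM in T14 replicates 1 to 3 and at 9.86, 6.42 and 10.7 CPM in T26 replicates 1 to 3. The log2 fold change was -1.45 (SE 0.42, 95% interval -2.33 to -0.57, edgeR adjusted p 0.040), and -1.26 without T26 replicate 2. At T18 the same gene stood at 5.71, 22.5 and 3.89 CPM, so that a single time spanned more than the difference between T14 and T26. Its call was lost without T14 replicate 2 or 3 (adjusted p 0.124 and 0.104) and without T26 replicate 1, 2 or 3 (0.109, 0.118 and 0.0848). ENSRNOG00000049132 stood at 6.90, 8.16 and 9.24 CPM in T14 replicates 1 to 3 and at 2.84, 3.88 and 2.51 CPM in T26 replicates 1 to 3. The log2 fold change was -1.40 (SE 0.30, 95% interval -2.04 to -0.77, edgeR adjusted p 0.0079), and -1.60 without T26 replicate 2 (adjusted p 0.0087). In WT ENSRNOG00000049132 stood at 2.42 ± 1.28 CPM at T14 and 3.47 ± 0.82 CPM at T26 (SD, n = 3 each), near the KO level at T26. In the fit with all 42 libraries, the calls of both genes were lost (adjusted p 0.323 and 0.108) with nearly the same log2 fold changes, -1.44 and -1.40. Without WT T34 replicate 1 in that fit, ENSRNOG00000049132 was called again (adjusted p 0.011) and ENSRNOG00000047280 was not (0.127).

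**Figure D3:**
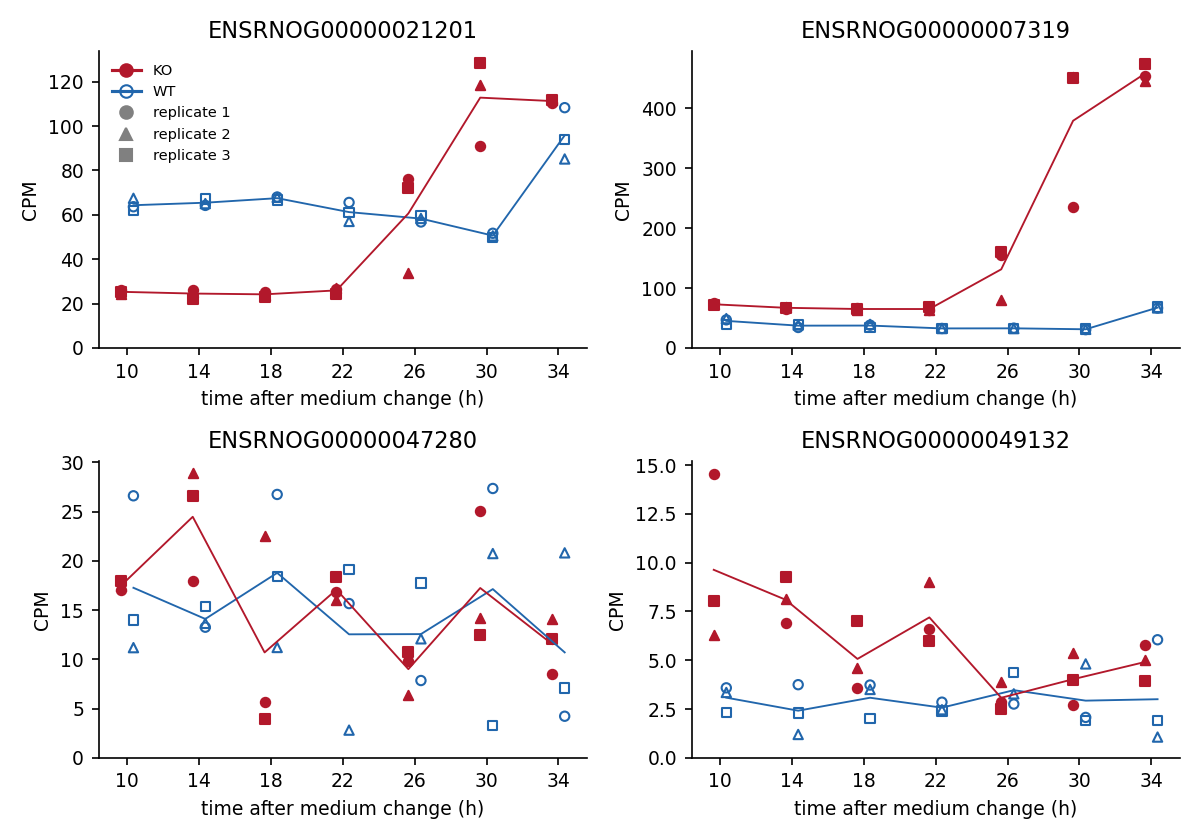
CPM of the 4 genes by time after the medium change, 1 point per library, with KO filled, WT open, replicates by symbol and lines through the means of 3. In the upper panels KO replicate 2 lies lowest at T26 and KO replicate 1 lowest at T30, and in the lower left panel the KO replicates of T18 lie from 3.89 to 22.5 CPM while those of T10 lie within 17.0 to 17.9 CPM.

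A smaller change from T14 in T26 replicate 2 than in replicates 1 and 3 was found for a majority of the called genes. The median distance from the T14 mean, in log2 CPM, was 0.27, 0.22 and 0.28 in T26 replicates 1 to 3 over the genes that rose, and -0.28, -0.23 and -0.27 over the genes that fell. Replicate 2 was the least changed of the 3 for 561 of the 1000 genes, against 199 for replicate 1 and 240 for replicate 3. For 161 genes its distance from T14 was under 50% of the mean distance of replicates 1 and 3, and for 318 genes it was at least as large, a split chosen after the values were seen. These classes were then set against T34 minus T22, measured in KO libraries of other times but with the spread estimated in the same fit. The genes under 50% had a median T34 minus T22 change of 0.30 on the log2 scale in their own direction, and 112 of them (69.6%) were called that way. The genes with replicate 2 at least level had a median of 0.04, with 110 (34.6%) called in their own direction and 89 (28.0%) in the opposite one. Over all genes tested, 27.4% were called higher and 27.9% lower at T34 than at T22, near the shares of this last class. The genes in which T26 replicate 2 lagged were thus more often called in the same direction between T22 and T34, an interval that includes T26, with no test of this made.

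The genes that differed between T14 and T26 were also compared in the 12 KO libraries of T10, T18, T22 and T30. These flank the 2 times and hold none of their libraries. The 12 libraries did enter the estimate of the spread by which those genes were called, so the sets were not chosen wholly apart from them. The mean of T22 and T30 differed from the mean of T10 and T18 for 2623 of 13754 genes (19.1%), 1369 higher (9.95%) and 1254 lower (9.12%). Of 485 tested genes that rose from T14 to T26, 304 (62.7%) were called higher and 0 lower. Of the 514 that fell, 283 (55.1%) were called lower and 2 higher. The median log2 fold change was 0.16 for the genes that rose, -0.16 for those that fell and 0.0026 over all genes. With the sets taken without T26 replicate 2, 66.0% of the genes that rose were called higher and 57.6% of those that fell were called lower.

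Between T22 and T18 alone, 0 genes were called by edgeR in the 12 libraries, with 576 at an unadjusted p under 0.05. The genes that rose had a median log2 fold change of 0.03 there and were positive in 71.8% of cases, against 52.3% of all genes. The genes that fell had a median of -0.04 and were positive in 29.6% of cases. Without T30 replicate 1, the count for the flanking times was 4798.

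ENSRNOG00000021201 and ENSRNOG00000007319 rose between the flanking times too, with log2 fold changes of 1.13 (SE 0.07, edgeR adjusted p 4e-06) and 1.19 (SE 0.13, edgeR adjusted p 0.00011). ENSRNOG00000047280, at 0.33 (SE 0.33, edgeR adjusted p 0.52), and ENSRNOG00000049132, at -0.37 (SE 0.23, edgeR adjusted p 0.29), did not pass the test there. Without KO T18 replicate 2, ENSRNOG00000047280 was called higher between the flanking times, opposite to its change from T14 to T26, at 0.90 (edgeR adjusted p 0.0061).

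In a 24 h rhythm T34 would have the phase of T10. The KO libraries of T34 were compared with those of T22 and of T10. The comparisons share T34 but hold no T14 or T26 library. Of the 486 genes that rose from T14 to T26, 254 (52.3%) were higher at T34 than at T22, against 27.4% of all genes, and 76 (15.6%) were lower, against 27.9%. Of the 514 that fell, 264 (51.4%) were lower at T34 than at T22 and 82 were higher. Against T10, 311 (64.0%) of the genes that rose were higher at T34 and 38 (7.82%) lower, while 25.8% and 26.6% of all genes were higher and lower. For the genes that fell, 324 (63.0%) were lower at T34 than at T10 and 35 (6.81%) higher. Most of the called genes were thus called at T34 as beyond their T10 level in their own direction. A minority were called as back below or above their T22 level. Over all genes tested, 52.3% differed between T34 and T10. Whether the course of these genes is rhythmic was not tested. With the sets taken without T26 replicate 2, the shares beyond the T10 level in their own direction were 69.2% and 67.1%.

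The sets differed in how they stood at the times not compared. Among T10, T18, T22, T30 and T34, the KO mean was highest at T30 for 212 (43.6%) of the genes that rose, against 14.3% of all genes, and at T34 for 185 (38.1%), against 32.0%. The lowest mean was at T10 for 268 (55.1%) of them, against 18.8% of all genes. Among the genes that fell, the highest mean was at T10 for 283 (55.1%), against 19.3% of all genes. Their lowest mean was at T34 for 254 (49.4%), against 36.7%, and at T30 for 162 (31.5%), against 13.8%. Relative to the mean of T10, T18 and T22, the median of the genes that rose was 0.22 on the log2 scale at T26, 0.21 at T30 and 0.17 at T34. For the genes that fell it was -0.21, -0.22 and -0.23. The medians at T10 and T22 were -0.05 and 0.04 for the genes that rose and 0.06 and -0.04 for those that fell.

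**Figure D4:**
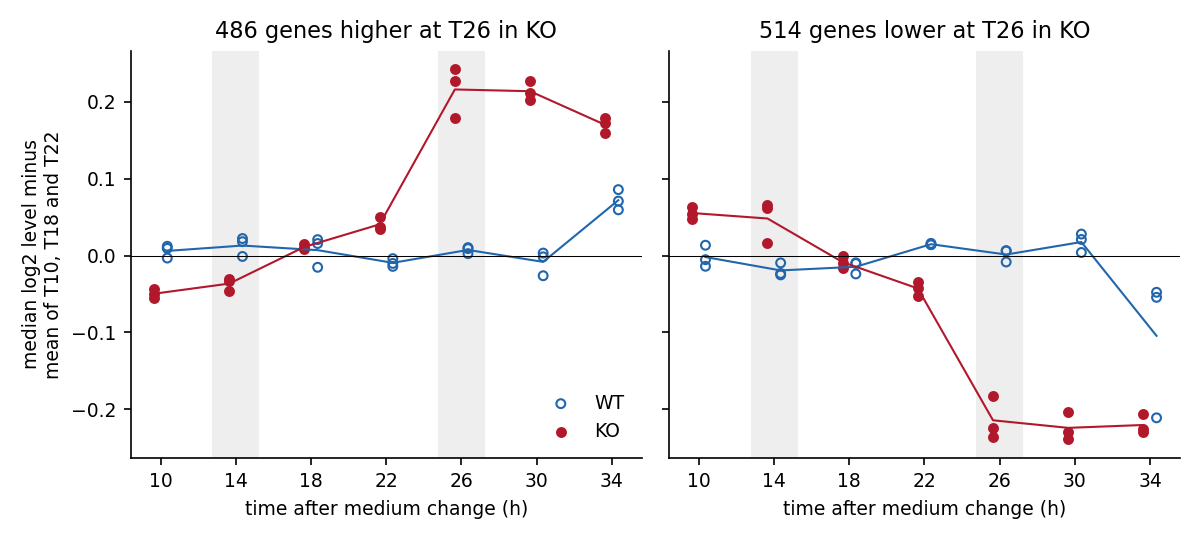
Median log2 level of the genes called higher (left) and lower (right) at T26 in KO cells, relative to each gene's mean over T10, T18 and T22 of the same genotype, 1 point per library, with lines through the means of 3 libraries and the times that chose the genes shaded. From T26 to T34 the KO medians lie 0.16 to 0.24 from 0 in their own direction, and the WT medians stay within 0.03 of 0 up to T30.

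The same 12 h were compared in WT cells, which share no library with the KO comparison, in a fit of all 42 libraries. Of 13776 genes 525 were called (3.81%), 268 higher (1.95%) and 257 lower (1.87%) at T26. In this same fit 264 genes were called for the KO change, fewer than in WT. WT T34 replicate 1 enters only the estimate of the spread, and leaving it out lowered the biological coefficient of variation over all genes from 0.139 to 0.092. Without it 1557 genes were called (11.3%), 840 higher (6.1%) and 717 lower (5.2%), and 967 were called for the KO change. The 10 most abundant genes took 23.2% to 27.1% of the counts in each KO library and at most 7.16% in each WT library. The most abundant gene alone took 15.8% to 19.0% in each KO library and at most 2.56% in each WT library. The part of this in differences between the genotypes was not tested. Of the 486 genes that rose in KO, 247 (50.8%) had a positive WT change, against 52.3% of all genes, and the median WT log2 fold change was 0.0041. In WT 13 of them (2.67%) were called higher and 28 (5.76%) lower, beside 1.95% and 1.87% of all genes. Of the 514 genes that fell in KO, 278 (54.1%) had a positive WT change, 37 (7.20%) were called higher and 28 (5.45%) lower. Both sets lay at higher levels than all genes, and the part of level in these shares was not tested. With the sets taken without T26 replicate 2, 18 of 513 genes that rose were called higher in WT and 25 lower, and 29 of 519 that fell were called higher and 25 lower.

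The difference between the KO change and the WT change was tested directly. It was called for 386 of 13776 genes (2.80%) by edgeR with all libraries, with the KO change more positive for 178 (1.29%) and more negative for 208 (1.51%). Without WT T34 replicate 1 it was called for 1312 (9.52%), more positive for 636 (4.62%) and more negative for 676 (4.91%). With KO T26 replicate 2 left out it was called for 372 and with KO T26 replicate 3 left out for 250. The median size of a called difference was 0.52 on the log2 scale with all libraries, and 37 genes differed at least 2-fold. Of the genes that rose in KO, 92 (18.9%) were called for the difference, all with the KO change more positive, and 86 of these had a negative WT change. Of the genes that fell, 103 were called, 102 with the KO change more negative, and 97 had a positive WT change. Without WT T34 replicate 1 the called shares were 47.3% of the genes that rose and 50.2% of those that fell. The test includes the KO change that chose the genes, so these shares describe the sets and do not test them. The WT change is part of it too, so a call favours genes whose WT change has the opposite sign. In the whole sets, 50.8% of the genes that rose and 54.1% of those that fell had a positive WT change, against 52.3% of all genes.

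**Figure D5:**
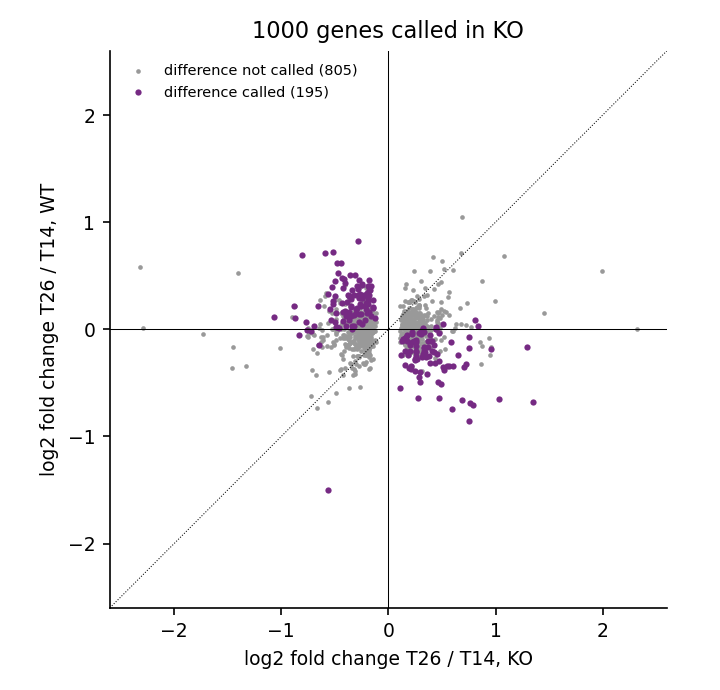
Log2 fold change of T26 over T14 in WT (vertical axis) against that in KO (horizontal axis) for the 1000 genes called in KO, 1 of which lies outside the axes. The dotted line marks equal changes. The 195 genes in purple, called for a difference between the genotypes with all 42 libraries, lie mostly where the WT change has the opposite sign. A called difference favours that position.

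Among the 4 genes, the difference was called for ENSRNOG00000021201, at 1.47 on the log2 scale (SE 0.22, edgeR adjusted p 7.2e-05), and for ENSRNOG00000007319, at 1.15 (SE 0.23, edgeR adjusted p 0.0033). It was not called for ENSRNOG00000047280, at -1.27 (SE 0.86, edgeR adjusted p 0.64), or for ENSRNOG00000049132, at -1.92 (SE 0.63, edgeR adjusted p 0.10). For ENSRNOG00000049132 the adjusted p was 0.012 without WT T34 replicate 1 and 0.0499 without WT T14 replicate 1.

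The same genes were set against the KO minus WT difference in level at T10, T18 and T22, in libraries of other times. That difference was called for 83% of all genes, 41.1% higher and 41.9% lower in KO, by edgeR with 42 libraries. Of the 486 genes that rose, 237 (48.8%) were higher in KO at those times and 171 (35.2%) lower, with a median log2 difference of 0.11. Of the 514 that fell, 194 (37.7%) were higher and 251 (48.8%) lower, with a median of -0.08. The quartiles of the genes that rose were -0.29 and 0.66, so both signs were common.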

How the data were processed

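RNA of GH4C1 cells was sequenced in 42 libraries, and the 6 KO libraries of T14 and T26 were compared. The authors deposited whole-number counts of reads per gene, made with featureCounts per the submitters' processing notes. The aligner, genome build, annotation, strand setting and gene filter are not given in the sources used here, so overlapping genes and near-identical copies are uncertain. The mean count of every listed gene was at least 50.3 in its highest group, so genes low throughout are not listed.

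Counts were tested in R 4.3.3 with edgeR 4.0.16 (quasi-likelihood F test, TMM, filterByExpr, Benjamini-Hochberg over all genes tested). T26 against T14 was fitted to the 21 KO libraries with a mean per time (13763 genes), the genotype difference to 42 libraries and the flanking times to 12. CPM values used TMM over 42 libraries, and log2 CPM a prior count of 1. The genes named were the 2 with the largest change each way among called genes with at least 5 CPM and no overlap between the times, since 0 identifiers matched a symbol. Gene lists fixed by symbol could not be applied. Comparisons and rules were chosen with earlier results of these data known. T34 against T22 and T10 was added after the data were seen.

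In replicate pairs of T14 and T26, counts differed beyond sampling noise (chi-square divided by its degrees of freedom, 8.24 to 23.6), so none was treated as a library deposited more than once. The fits were tested on simulated data with 200 changed genes. Of changes of 0.5 on the log2 scale, 72% were recovered for T26 against T14 and 79% for the flanking times. For the genotype difference only 13% were recovered, so it could miss most changes of that size. Of changes of 1, 89.5%, 95.5% and 75% were recovered. The alternatives were other scalings, filters, sets of libraries, a minimum change, a replicate block and DESeq2 1.42.0.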

Additional observations from a re-analysis of the deposited data

Results flagged for a closer look

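The change from T14 to T26 differed between KO and WT for 386 genes by edgeR at an adjusted p under 0.05, a direct test of the difference over 3 libraries per genotype and time. The count was 547 with DESeq2 and 1312 without WT T34 replicate 1. Of the 386 genes, 120 were called for the KO change and 221 for the WT change in the same fit, with 34 called for both and 79 for neither. Over all 13776 genes, that fit called 264 for the KO change and 525 for the WT change. Both changes are terms of the difference that chose the 386 genes, so the overlap is partly built in. In the 21 KO libraries alone, 195 of the 386 genes were called for the KO change, against 7.27% of all genes tested.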

How the results depend on the processing

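Alternatives gave 69 counts for 6 comparisons, of which 52 lay within 1.5 times of the value given first, and 237 fold changes of the 4 named genes, of which 212 kept their direction and call, 17 lost the call, 6 gained it and 2 reversed. For counts that moved the cause was not tested, other than by the construction given.

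For T26 against T14 in KO, against 1000, the count was 0 when a change above 1.5-fold was required, 264 in the fit of 42 libraries and 1704 without the T30 and T34 groups. With single libraries left out it ranged from 427 to 1655. DESeq2 called 1219 genes, 974 of them among the 1000. Library totals gave 869 calls, of which 40.5% were higher at T26, against 48.6% with TMM. For the genotype difference, against 386, the count was 10 with the minimum change, 1254 in the 12 libraries compared alone, and 250 to 1312 with single libraries left out. For the flanking times, against 2623, it was 1 with the minimum change, 0 for T22 against T18 and 1814 to 4798 with single libraries left out. With T30 replicate 1 as the only T30 library, a choice made after the data were seen, it was 1784, and that library is assumed to vary like the others. WT T26 against T14 gave 1557 genes without WT T34 replicate 1, against 525. Both reversals were for T22 against T18, where ENSRNOG00000007319 had a log2 fold change of -0.0015 and ENSRNOG00000049132 of 0.51. Neither gene was called there.

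Deviations from the group mean had correlations over genes of 0.036, 0.013 and 0.036 between same-numbered libraries of T14 and T26. Between differently numbered libraries they lay from -0.045 to 0.010. On the second component of the 6 libraries alone, with 19.4% of the variance, replicate 3 lay at -16.9 at T14 and -14.1 at T26. The others lay between 3.85 and 9.85. Whether same-numbered libraries share more than a number was not tested. With the replicate number as a block, 1097 genes were called for T26 against T14, 390 for the genotype difference and 2623 for the flanking times. T34 against T22 and against T10 stayed within 1.5 times under every alternative run, with 7485 to 7873 and 7144 to 7523 genes. Depth limits what could be called below 6.38 CPM, where the median standard error of the log2 fold change was 0.21.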

Other observations

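In WT cells the genes that changed between T14 and T26 in KO were also followed to T34. Relative to the mean of T10, T18 and T22, the genes that rose in KO stood at 0.06, 0.09 and 0.07 on the log2 scale in WT T34 replicates 1 to 3. The genes that fell stood at -0.21, -0.05 and -0.05, with replicate 1 apart from the others. At T30 the WT medians were between -0.03 and 0.03. ENSRNOG00000021201, which stood at 111 to 112 CPM in the KO T34 libraries, reached 108, 85.2 and 94.0 CPM in WT T34 replicates 1 to 3, against 49.7 to 51.7 CPM in the 3 WT libraries of T30.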
